A study of Mus musculus with 26 samples.

Results

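The data describe the transcriptional response of murine Ba/F3/gp130 cells with a synthetic IL-22 receptor pair, mCherryVHHIL-10R2 and GFPVHHIL-22Rα1, to a GFP-mCherry fusion protein. The arrays were chosen by their titles, 6 given GFP-mCherry and 6 left untreated, 12 of 26 arrays in the series. Both groups carry the replicate numbers 7, 9, 11, 12, 13 and 14. All 19938 genes with a probe set of 1 symbol were tested.

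IL-22 signals when it joins IL-22Rα1 to IL-10R2, whose Janus kinases JAK1 and TYK2 then activate STAT3, and STAT3 switches on inhibitors such as SOCS3 that end the signal. In the synthetic receptors, nanobodies (VHH, single antibody domains of camelids) against mCherry and GFP stand outside the membrane, so that a soluble GFP-mCherry fusion can bind both chains, while dimeric mCherry-Fc can bind only the chain with the mCherry nanobody. Ba/F3 is a mouse hematopoietic line that dies without cytokine. The cells here express gp130 as well, through which IL-6 and its relatives signal.

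Before stimulation every culture had been kept in Hyper-IL-6 (IL-6 fused to its soluble receptor), then received 4 washes and 4 h of serum-free starvation. The 6 GFP-mCherry arrays came from cells given 100 ng/ml of the purified protein for 2 h. The 6 untreated arrays, and the other groups used below, came from the same line or its counterpart: 6 arrays of the synthetic receptor line given mCherry-Fc (100 ng/ml), and cells with natural IL-10R2 and IL-22Rα1, 4 given IL-22 (100 ng/ml) and 4 untreated. No group received a control protein, and the labels do not say whether the lines are single clones or whether arrays of a group are separate cultures. The p-values therefore measure the spread between these arrays, which may be technical. In bulk RNA, fewer cells expressing a gene and less RNA per cell cannot be told apart.

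The labels call Ba/F3 a pro-B line, and its defining markers were only partly present. Taking the 95th percentile of the olfactory receptor genes in untreated arrays, 5.8 on the log2 intensity scale, as the level of genes that should be silent, 8 of 22 B lineage markers stood above it. Cd79a (median 9.54), Cd79b (8.93), Ikzf1 (10.40) and Tcf3 (9.59) were high, while Pax5 (5.42), Ebf1 (4.76), Rag1 (4.92) and Ms4a1 (3.82) were not. Some markers of every other lineage examined stood above it too. These were 13 of 17 erythroid and megakaryocyte, 11 of 21 myeloid, 7 of 12 fibroblast and epithelial, 6 of 13 T cell, 6 of 15 mast cell and 2 of 10 NK cell markers. Among them were Gata2 at 12.36, Spi1 at 11.16 and Gata1 at 10.13. The median untreated level over all 19938 genes, 6.6, is itself above 5.8, so these counts alone do not show that a lineage's genes are expressed. The highest T cell marker reached only 6.5 and the highest fibroblast or epithelial marker 7.4. The mean level of the B lineage list ranged from 6.0 to 6.19 in GFP-mCherry arrays and from 6.08 to 6.27 in untreated ones, and that of the erythroid list from 7.88 to 7.93 and from 7.93 to 8.09.

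Arrays within a group correlated at 0.996 to 0.998 for GFP-mCherry and at 0.990 to 0.998 for untreated cells across genes. Array medians did not overlap between the groups, at 6.06 to 6.13 for GFP-mCherry and 6.17 to 6.28 for untreated arrays, and mCherry-Fc arrays lay at 6.06 to 6.14. Upper quartiles overlapped, at 8.40 to 8.44 and 8.29 to 8.42.

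GFP-mCherry changed many genes slightly and few strongly. Of the 19938 genes, 5183 (26%) passed limma's test at a Benjamini-Hochberg adjusted p below 0.05, 2839 (14.2%) higher and 2344 (11.8%) lower. A change of at least 1.5-fold was met by 224 of them, 200 higher and 24 lower, and one of at least 2-fold by 42, 40 higher (0.201% of all genes) and 2 lower. The median over all genes was -0.04 on the log2 scale, and the median half-width of a gene's 95% interval was 0.16. The split between higher and lower calls moved with the scaling, from 54.8% higher as deposited to 49.3% after quantile normalization and 78.5% after each array was centred on its median. Counts in the gene lists below are to be read beside the shares over all genes, 14.2% higher and 11.8% lower. Where a single gene's call is said below to be lost, fits that left out an untreated array were not among the settings read.

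The sign of the small changes followed the level of the gene. In the dimmest of 5 equal bins, 23 genes rose and 265 fell, and in the next 20 rose and 563 fell. The fourth bin, with mean levels of 7.42 to 9.02, held 1323 rises and 291 falls, and the brightest 1150 and 502. The medians of the 5 bins were -0.06, -0.11, -0.09, 0.11 and 0.06. Against mCherry-Fc no bin's median was further from 0 than 0.02. The olfactory receptor genes, which served above as the reference for silence, moved with the dim bins: 112 of 1027 fell, 1 rose, and their median was -0.08. The part of this level-dependent shift in the small changes described below was not tested. The leading changes below were many times its size.

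**Figure D1:**
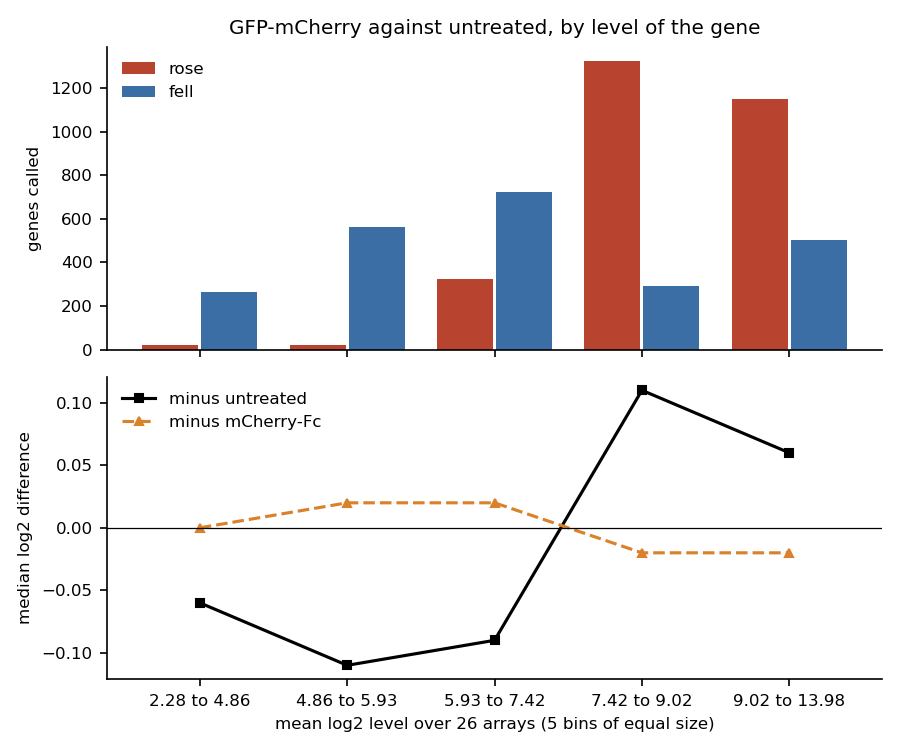
Genes that rose or fell after GFP-mCherry (upper panel, number of genes) and the median log2 difference (lower panel) in 5 bins of equal size by mean log2 level over 26 arrays. Falls outnumber rises in the 3 dimmest bins and rises outnumber falls in the 2 brightest, while the medians against mCherry-Fc stay within 0.02 of 0.

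NF-kB factors are held in the cytoplasm by IkB proteins until IkB kinases mark these for destruction, and the genes of several IkB proteins are themselves NF-kB targets that close the loop. Promoters of the genes that led the response are shown here because the motif that NF-kB binds, the kappa B site, was found in some and not in others. Each is the 250 bases before a start of the gene, 5′ to 3′ on the gene's strand, from RefSeq (GRCm38.p6). Capitals mark matches of the 10-base kappa B motif, of the STAT motif TTCNNNGAA or of the E-box CACGTG, on either strand.
Nfkbia (chr12:55492648-55492897, minus strand): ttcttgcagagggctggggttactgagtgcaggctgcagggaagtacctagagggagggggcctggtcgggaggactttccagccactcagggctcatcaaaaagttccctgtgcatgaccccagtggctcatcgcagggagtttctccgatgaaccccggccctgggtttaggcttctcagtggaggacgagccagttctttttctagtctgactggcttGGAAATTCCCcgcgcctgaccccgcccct
Nfkbie (chr17:45555450-45555699, plus strand): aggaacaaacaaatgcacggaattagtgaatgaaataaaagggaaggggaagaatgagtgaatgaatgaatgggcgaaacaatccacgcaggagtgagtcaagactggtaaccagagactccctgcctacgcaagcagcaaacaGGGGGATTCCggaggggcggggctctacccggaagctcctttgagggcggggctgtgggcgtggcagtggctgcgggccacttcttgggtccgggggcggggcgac
Tnfaip3 (chr10:19015411-19015660, minus strand): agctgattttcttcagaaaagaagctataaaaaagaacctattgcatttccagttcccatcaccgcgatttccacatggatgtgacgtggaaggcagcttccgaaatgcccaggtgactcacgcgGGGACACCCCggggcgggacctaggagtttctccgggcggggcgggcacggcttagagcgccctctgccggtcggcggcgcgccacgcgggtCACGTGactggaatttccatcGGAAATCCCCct
Socs3 (chr11:117969367-117969616, minus strand): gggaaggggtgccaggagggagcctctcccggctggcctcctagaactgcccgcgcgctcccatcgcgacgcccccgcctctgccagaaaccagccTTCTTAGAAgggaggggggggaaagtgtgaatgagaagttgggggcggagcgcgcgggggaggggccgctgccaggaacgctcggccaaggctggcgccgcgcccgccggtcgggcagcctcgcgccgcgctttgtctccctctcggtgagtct
The kappa B match of Nfkbia lay 29 to 20 bases before the start and that of Nfkbie 106 to 97 bases before it. Tnfaip3 held 2 matches, at 125 to 116 and at 12 to 3 bases, and an E-box at 33 to 28 bases that overlapped neither. A second Tnfaip3 window in the table (chr10:19011964-19012213), before another annotated start, held no match. Socs3, a gene of the STAT3 feedback loop, held a STAT match at 154 to 146 bases and no kappa B match.

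Counting a gene once if any of its windows matched, a kappa B match was present in 6 of the 11 genes with a promoter entry among the 12 largest rises (54.5%), and in 11 of 33 with an entry among those at least 2-fold higher (33.3%). Among all 15614 genes with an entry the share was 788 (5.05%), and among all 19177 promoter windows of that length 4.33%. The STAT motif was found in 7 of the 33 (21.2%) against 7.71% of all genes, and the E-box in 4 of 33 (12.1%) against 8.11%. No kappa B match was found in the windows of Zc3h12a, Gpr84, Birc3, Pim1, Pim2 or Cish, and Icam1 had a STAT match only. A match is a run of letters in this window and nothing more.

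All 6 measured IkB family genes rose, and 4 of them rose more than 2-fold. Their median log2 difference was 1.89, against -0.04 over all genes and 0.26 for the same genes after mCherry-Fc. Nfkbia, which encodes IkBα, was the largest change of all 19938 genes. It stood at 8.37 to 8.76 in untreated arrays (log2 intensity, median 8.45) and at 11.61 to 11.98 after GFP-mCherry (median 11.69). The lowest treated array was thus far above the highest untreated one, and the mCherry-Fc arrays (8.38 to 8.74) lay among the untreated. The rise was 9.37-fold (log2 3.23, SE 0.17, n = 6 and 6, limma's adjusted p = 1.57e-13).

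Nfkbie, for IkBε, stood at 6.61 to 6.95 (median 6.82) in untreated and 9.08 to 9.57 (median 9.12) in GFP-mCherry arrays. It rose 5.27-fold (log2 2.40, SE 0.08, adjusted p = 2.11e-18), the smallest adjusted p in this comparison among the genes named here, and mCherry-Fc arrays reached only 7.18 to 7.51. Nfkbiz, for the nuclear IkBζ that acts as a coactivator of secondary NF-kB targets, went from 7.49 to 7.80 up to 9.90 to 10.27, a 5.01-fold rise (log2 2.33, SE 0.12, adjusted p = 1.51e-13). Nfkbid (IkBNS) rose 2.72-fold, from a median of 7.52 to 8.96, with no overlap. Nfkbib (IkBβ) rose by 0.52 and Bcl3, another nuclear member, by 0.35 on the log2 scale.

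The NF-kB subunits split by role. Nfkb2, the p100 precursor of p52, rose 2.18-fold (8.06 to 8.20 against 9.19 to 9.35; log2 1.13, SE 0.06, adjusted p = 1.3e-13), and its partner Relb rose 1.77-fold (log2 0.82). Rela, the p65 subunit, stood at 10.07 to 10.24 against 10.11 to 10.25 in untreated arrays (log2 -0.04, adjusted p = 0.773). Rel fell by 0.32 (adjusted p = 0.017), a call that was lost after centring and within numbers 7, 9 and 11.

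Kinases that act above NF-kB moved little. Of 9 measured, Ikbke, for the inducible kinase IKKε, rose 1.69-fold (log2 0.75, adjusted p = 8.95e-06). Map3k14 passed narrowly (log2 0.14, adjusted p = 0.0471) and lost its call under 9 of the alternatives. Ikbkb (0.15), Ikbkg (-0.04), Tbk1 (-0.04), Map3k7 (0.07) and Tab1, Tab2 and Tab3 (between -0.11 and -0.01) did not pass.

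Feedback genes around the ubiquitin editor A20 rose next to the IkB genes. Of 17 measured A20, TRAF and cIAP genes 9 rose and none fell in limma's test, 3 of them at least 2-fold. Tnfaip3, the gene of A20, stood at 7.26 to 7.62 (median 7.47) in untreated arrays and 9.35 to 9.69 (median 9.44) after GFP-mCherry. The groups did not overlap, and the mCherry-Fc arrays (7.31 to 7.62) lay within the untreated range. It rose 4.03-fold (log2 2.01, SE 0.12, adjusted p = 1.7e-12). The A20-binding genes Tnip3 and Tnip1 rose 2.20-fold and 1.62-fold, the inhibitor of apoptosis genes Birc3 and Birc2 2.03-fold and 1.33-fold, and the adaptor Traf1 1.79-fold.

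Of 38 effector genes of NF-kB 9 rose (23.7%, against 14.2% of all genes), 3 fell (7.89%, against 11.8%), and the list's median was 0.03. Gpr84, whose product senses medium-chain fatty acids on myeloid cells, went from 6.03 to 6.44 (median 6.17) up to 8.60 to 8.97 (median 8.69), with no overlap. That was 5.67-fold (log2 2.50, SE 0.11, adjusted p = 4.8e-15). Ier3, an early gene that promotes survival, rose 4.46-fold (7.22 to 8.04 against 9.48 to 10.20; log2 2.16, SE 0.26).

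The cytokine gene Tnf stood at 5.82 to 6.46 (median 6.10) in untreated and at 7.5 to 8.87 (median 7.96) in GFP-mCherry arrays, 3.88-fold higher (log2 1.96, SE 0.17, adjusted p = 3.82e-09). Ltb, for lymphotoxin beta, went from 8.37 to 8.93 up to 9.84 to 10.66 and rose 2.78-fold. Neither gene's groups overlapped, though the GFP-mCherry arrays spread over more than 1 log2 unit for Tnf. Icam1, for an adhesion molecule, rose 2.74-fold, Gadd45b 2.12-fold and Irf1 1.91-fold. A second, dimmer Irf1 probe set read a log2 difference of -0.05 that did not pass in limma's test (adjusted p = 0.738 over all probe sets). Il15, for a cytokine that supports lymphocytes, fell 1.56-fold (9.12 to 9.39 against 8.44 to 8.80; log2 -0.64, adjusted p = 1.08e-05).

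**Figure D2:**
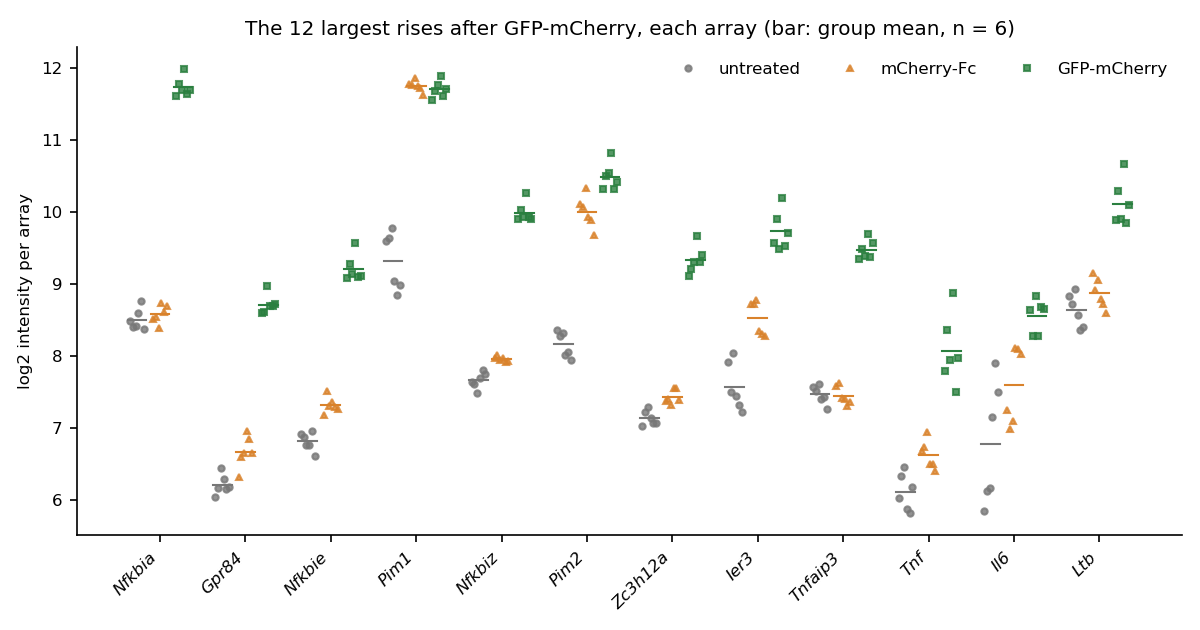
Log2 intensity of the 12 largest rises on each of 6 untreated, 6 mCherry-Fc and 6 GFP-mCherry arrays, with a bar at each group's mean. For Nfkbia, Gpr84, Tnfaip3, Tnf, Il6 and Ltb the mCherry-Fc arrays overlap the untreated ones, for Pim1 and Pim2 they overlap the GFP-mCherry arrays, and the untreated Il6 values span 5.84 to 7.90.

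Among other secreted signals, no chemokine gene of 21 rose and 3 fell (14.3%, near the 11.8% of all genes). Ccl2 fell by the most (log2 -0.39, adjusted p = 0.00108), and the list median was -0.14. The list is dim, with a median untreated level of 5.3, and after quantile normalization 1 gene rose and 1 fell. Of 24 interleukin and cytokine genes 5 rose and 1 fell. Il6 stood at 5.84 to 7.90 (median 6.66) in untreated arrays and at 8.27 to 8.83 (median 8.65) after GFP-mCherry, 3.43-fold higher (log2 1.78, SE 0.28, adjusted p = 2.7e-05). The groups did not overlap, but the untreated arrays were far more spread than the treated ones. Osm and Lif, 2 further ligands of gp130 receptors, rose 1.5-fold and 1.45-fold.

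Among 18 Toll-like receptor and co-receptor genes 1 rose and 2 fell. Cd180, for a receptor related to TLR4 that sits on B cells and myeloid cells, had the largest fall of all genes under the naming rule. It stood at 9.89 to 10.25 in untreated and 8.70 to 9.31 in GFP-mCherry arrays, without overlap, and fell 2.32-fold (log2 -1.21, SE 0.24, adjusted p = 0.000528). Ly96, for the TLR4 partner MD-2, fell 1.65-fold (9.75 to 10.43 against 9.20 to 9.51). Cnpy3, a chaperone of Toll-like receptors, rose by 0.40. Tlr4 itself lay below the 5.8 reference in both groups, at 4.11 to 4.38 untreated and 3.91 to 4.40 treated.

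Of 11 Toll and IL-1 adaptor genes, Irak2 rose 1.55-fold (log2 0.63, adjusted p = 2.22e-06) and Myd88 1.42-fold (adjusted p = 0.015), while Irak3, an inhibitory member, fell by 0.24. Ticam1, Ticam2, Tirap, Irak1, Tollip, Sigirr, Il1rap and Il18r1 lay between -0.11 and 0.12 and did not pass. Of 15 genes of cytokine mRNA decay 5 rose and 2 fell (3 and 3 after quantile normalization). Zc3h12a, whose product Regnase-1 cuts cytokine mRNAs such as that of Il6, went from 7.03 to 7.28 up to 9.11 to 9.66. The 4.59-fold rise (log2 2.20, SE 0.08, adjusted p = 8.87e-17) left no overlap. Zfp36, which destabilises AU-rich mRNAs, rose 1.52-fold and N4bp1, an inhibitor of NF-kB signalling with an RNase domain, 1.28-fold.

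Of 9 measured Janus kinase and STAT genes none rose at the threshold of limma's test and 1 fell. Stat3 stood at 10.86 to 11.01 after GFP-mCherry and 10.88 to 11.12 without it (log2 -0.05, adjusted p = 0.538). Jak1 (0.01), Jak2 (0.01), Tyk2 (0.11), Stat5a (-0.04) and Stat4, Stat5b and Stat6 (all between -0.10 and 0.17) did not pass. Stat2 fell by 0.27 (adjusted p = 0.00258), a call lost after centring and within numbers 7, 9 and 11.

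The SOCS genes, STAT targets whose products block the receptors, rose in 5 of 8 cases and fell in none, with a median of 0.25. Cish, the classical STAT5 target, stood at 6.53 to 6.85 (median 6.64) in untreated and at 7.60 to 7.83 (median 7.74) in GFP-mCherry arrays. It rose 2.08-fold (log2 1.06, SE 0.11, adjusted p = 6.22e-08) with no overlap. Socs3 went from 7.21 to 7.66 (median 7.43) up to 8.32 to 8.61 (median 8.44), 2.03-fold (log2 1.02, SE 0.07, adjusted p = 2.46e-11). A second, dimmer Socs3 probe set read a smaller difference of 0.20 that did not pass (adjusted p = 0.155 over all probe sets). Socs2 rose by 0.61, Socs6 by 0.31 and Socs7 by 0.18, the last with its call lost under 4 alternatives. Dimmer probe sets of Socs6 read 0.19 and -0.01 and did not pass, and the call of Socs6 was lost with the mean of all its probe sets. Socs1 (-0.02), Socs4 (0.18) and Socs5 (0.01) did not pass.

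Of 44 target genes of STAT3 and STAT5, 25 rose (56.8%, against 14.2% of all genes) and 2 fell, with a median of 0.28. The PIM kinases, serine kinases that replace part of the survival signal of cytokines, led them. Pim1 stood at 8.85 to 9.77 (median 9.32) in untreated and 11.56 to 11.88 (median 11.70) in GFP-mCherry arrays. Pim2 went from 7.94 to 8.35 up to 10.31 to 10.82. Both rose without overlap, Pim1 5.24-fold (log2 2.39, SE 0.15, adjusted p = 4.7e-12) and Pim2 5.01-fold (log2 2.33, SE 0.17, adjusted p = 7e-11), while Pim3 lay at 7.32 to 7.60 against 7.30 to 7.90 (log2 -0.10, adjusted p = 0.369). Il4ra, for the IL-4 receptor, rose 2.19-fold (8.43 to 8.69 against 9.60 to 9.71). Junb rose 1.69-fold, Sbno2 1.41-fold and Bcl2l1, the gene of the survival protein BCL-XL, 1.45-fold.

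Genes of the receptors themselves changed little. Among 11 class II cytokine receptors Ifngr2, the signalling chain for interferon gamma, rose 2.47-fold (8.90 to 9.29 against 10.33 to 10.60; log2 1.30, SE 0.12, adjusted p = 1.2e-08). Il10rb, the gene of IL-10R2, rose by 0.25 (9.99 to 10.16 against 10.25 to 10.37, adjusted p = 0.0106), a call lost after quantile normalization. Il22ra1 lay at 6.14 to 6.29 against 6.18 to 6.48 (log2 -0.07, adjusted p = 0.345), although its dimmer second probe set was lower by 0.26 (adjusted p = 0.0397 over all probe sets). The cells with natural receptors read 12.07 to 12.43 on the first Il22ra1 probe set and 11.71 to 12.21 for Il10rb. Where these probes lie on the synthetic constructs is not given in the labels. Ifngr1 (-0.11), Il10ra (-0.06), Il22ra2, Il20ra, Il20rb, Ifnar1, Ifnar2 and Ifnlr1 did not pass, and all of the last 6 lay between -0.17 and 0.08. Of 22 class I receptors 3 rose and 3 fell, with Csf2ra lower by 0.44 and Csf2rb2 by 0.35 on the log2 scale. The call of Csf2rb2 was lost after centring. Il6st, for gp130, stayed at 4.82 to 4.96 against 4.88 to 5.06.

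The ERK route, which many cytokine receptors also use, is read here through a list of ERK feedback genes, not all of which encode inhibitors. Of 20 such genes 13 rose and none fell in limma's test, with a median of 0.50. Phlda1 rose 2.74-fold (6.35 to 6.86 against 7.94 to 8.27), Dusp4, a phosphatase of ERK, 2.40-fold (6.11 to 6.56 against 7.36 to 7.77), and the transcription factor Etv5 2.23-fold (6.61 to 7.37 against 8.03 to 8.48). None of the 3 had overlapping groups. Spred2 rose 1.88-fold, Dusp6 1.82-fold and Dusp16 1.63-fold.

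Immediate early genes rose in 10 of 30 cases (33.3%, against 14.2% of all genes) and fell in 2 (6.67%, against 11.8%). After quantile normalization 7 rose and 1 fell. Fosl1 and Ier2 rose 1.71-fold each and Jun 1.33-fold. Egr1, the classic early ERK and SRF target, lay at 5.85 to 6.06 against 5.47 to 6.29 (log2 0.09, adjusted p = 0.547). Klf6, also a gene of resting cells, fell 1.56-fold (8.91 to 9.33 against 8.27 to 8.66).

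Of 8 ID and GADD45 genes, Id1, an inhibitor of differentiation factors, rose 1.75-fold (7.41 to 7.81 against 8.19 to 8.52; log2 0.81, adjusted p = 1.16e-06). Gadd45b and Gadd45gip1 rose as well, Gadd45a fell by 0.40 and Id4 by 0.35, and Id2, Id3 and Gadd45g did not pass, at 0.05 to 0.23. In the MYC network, Myc rose 1.96-fold (10.21 to 10.48 against 11.22 to 11.42; log2 0.97, SE 0.07, adjusted p = 7.37e-11). Mycn rose 1.85-fold and Max, their shared partner, 1.39-fold. The antagonists Mga and Mnt fell by 0.26 and 0.15. Mycl, Mxd1, Mxd3, Mxd4, Mxi1, Mlx and Mlxip lay between -0.05 and 0.10 and did not pass.

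Growth machinery rose broadly and by small amounts. Over 496 genes of the lists of RNA polymerases I and III, ribosome assembly, ribosomal proteins, respiratory complexes, mitochondrial import, proteasome, translation factors, tRNA synthetases, nucleotide and polyamine synthesis and snRNPs, 325 rose (65.5%) and 9 fell, with a median of 0.23 against -0.04 for all genes. None of them rose 2-fold. Some of these counts depended on the scaling and were smaller after quantile normalization, at 13 rises and 4 falls of 55 for cytosolic ribosomal proteins, 38 and 2 of 78 for mitochondrial ones and 5 and 3 of 19 for RNA polymerase III, while ribosome assembly had 48 rises of 77 and complex IV 9 of 11. These genes are bright, with a median level of 9.5 in untreated cells. In the brightest bin of all genes, from 9.02 up, 1150 of 3988 rose with a median of 0.06, and in the bin below it 1323 of 3987 with a median of 0.11.

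RNA polymerase I, which transcribes ribosomal RNA, had 9 of 15 genes higher and 1 lower, led by Polr1b (1.74-fold) and Taf1a (1.63-fold). RNA polymerase III had 9 of 19 higher and none lower in the test, led by Polr3e (1.69-fold). Of 77 ribosome assembly genes 55 rose and 1, Wdr46, fell. Rrp1b rose 1.95-fold (7.60 to 7.91 against 8.62 to 8.89), Nop56, a core protein of the particles that methylate ribosomal RNA, 1.78-fold (10.01 to 10.17 against 10.86 to 11.01) and Tsr1 1.74-fold. Cytosolic ribosomal proteins rose in 30 of 55 cases with a smaller median of 0.15, led by Rpl24 (1.57-fold), and mitochondrial ribosomal proteins in 57 of 78 with a median of 0.26, led by Mrpl36 (1.67-fold), Mrps28 and Mrpl17.

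Genes for the respiratory chain moved the same way: 55 of 76 rose, none fell in the test, and the median was 0.25. Complex IV, cytochrome oxidase, had the highest list median of the 5 complexes, 0.39, with 9 of 11 genes higher. Cox5a rose 1.65-fold (9.29 to 9.57 against 10.06 to 10.25; log2 0.72, adjusted p = 2.53e-10), Cox8a 1.47-fold, Ndufa4 1.44-fold and Cox5b 1.40-fold. Cox6a1, Cox7a2, Cox7b, Cox4i1 and Cox6b1 rose by 0.32 to 0.43, while Cox6c and Cox7a2l did not pass (0.06 to 0.20). In complex I 24 of 34 rose, led by Ndufs5 (1.59-fold) and Ndufb8 (1.5-fold). In complex II Sdhb and Sdhd rose by 0.44 and 0.18, and Sdha and Sdhc (0.09 to 0.16) did not pass. The call of Sdhd was lost after quantile normalization and within low replicate numbers. In complex III Uqcrq rose 1.57-fold, Uqcr10 1.38-fold and Cyc1 1.34-fold, Uqcr11, Uqcrfs1, Uqcrh and Uqcrc1 rose by at most 0.39, and Uqcrc2 and Uqcrb did not pass. ATP synthase had 13 of 18 genes higher, led by Atp5md (1.43-fold). Import into mitochondria had 21 of 31 higher, led by Chchd4 (1.53-fold) and Tomm7 (1.52-fold). The TCA cycle enzymes had 7 of 17 higher, with Suclg1 and Cs at 1.25-fold and 1.21-fold.

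Other parts of protein and RNA metabolism followed. The proteasome had 20 of 31 genes higher and none lower in limma's test, led by Psma7 (1.45-fold) and Psmb7 (1.39-fold). Psmb10, Psmb8 and Psme2 of the immunoproteasome, which trims peptides for MHC class I, were higher by 1.40-fold, 1.27-fold and 1.36-fold, but the MHC and antigen processing list as a whole had 3 rises and 3 falls in 18. Core proteins of the splicing snRNPs rose in 15 of 19 cases, led by Snrpe (1.59-fold) and Snrpa1 (1.55-fold). The list of tRNA synthetases had 11 of 18 higher and 1 lower, with Hars and Mars1 at 1.41-fold and 1.34-fold. Translation factors had 18 of 39 higher and 1 lower, led by Eif1a (1.70-fold), and chaperonin genes 8 of 14.

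Synthesis of nucleotides had 19 of 31 genes higher and 2 lower (11 and 2 after quantile normalization), with Ctps, which makes CTP, at 1.56-fold and Umps at 1.37-fold, while Paics of the purine route fell 1.21-fold. All 7 measured polyamine genes passed. Srm, for spermidine synthase, rose 1.44-fold, Odc1, the first enzyme of the route, 1.2-fold, and Azin1, Oaz2, Dhps and Dohh rose by 0.23 to 0.60. Sat1, which breaks polyamines down, was lower (log2 -0.37, adjusted p = 0.0263), with its call lost after centring and without GFP-mCherry array 7 or 14. Nuclear transport had 12 of 30 higher and heat shock genes 5 of 15.

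**Figure D3:**
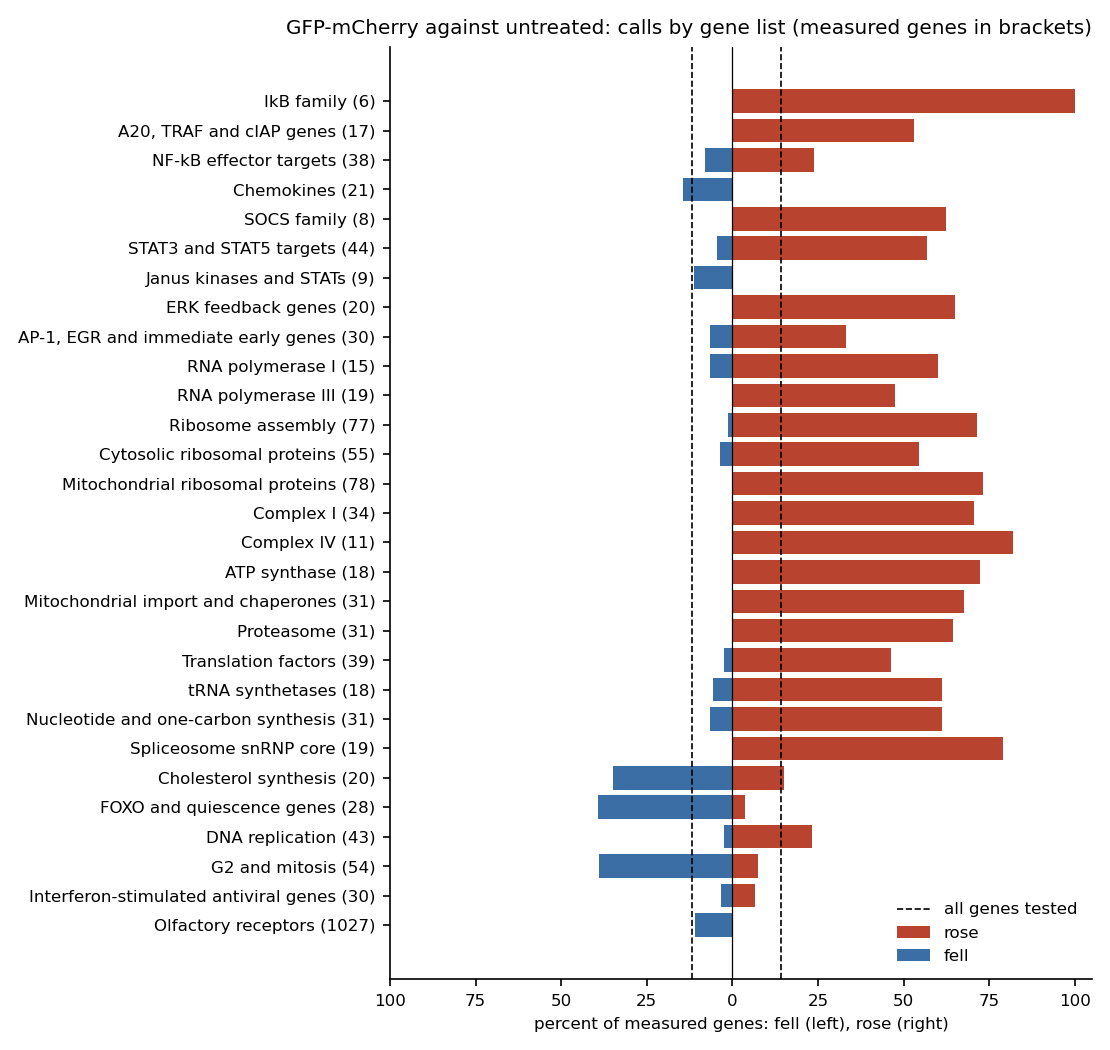
Percent of the measured genes of 29 lists that rose (right) or fell (left) after GFP-mCherry, with dashed lines at the shares over all genes tested, 14.2% and 11.8%. The IkB list stands at 100%, the lists of growth machinery between 46.2% and 81.8% on the right, and cholesterol synthesis, FOXO and mitosis genes lie past the dashed line on the left.

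Cholesterol synthesis moved the other way, with 7 of 20 genes lower, 3 higher and a median of -0.10, against 0.11 after mCherry-Fc. The falls numbered 4 after centring and 10 after quantile normalization. Insig1, a sterol-regulated brake on the pathway, stood at 10.84 to 11.14 in untreated and 10.37 to 10.53 in GFP-mCherry arrays and fell 1.42-fold (log2 -0.51, SE 0.16, adjusted p = 0.0179). Lss, for lanosterol synthase, fell 1.40-fold, Hmgcs1, the entry enzyme, 1.29-fold, and Msmo1 1.25-fold (10.67 to 11.19 against 10.51 to 10.68) with ranges that met at 10.67 and 10.68. Ebp rose 1.30-fold. Fatty acid synthesis had 3 of 15 higher and none lower in the test.

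Of 19 glycolysis genes 4 rose, among them the hexokinase Hk2 (1.66-fold, 8.46 to 9.54 against 9.60 to 10.09), Pgam1 (1.40-fold) and the lactate carrier Slc16a1 (1.33-fold). Of 15 hypoxia genes 1 rose and Kdm3a fell 1.35-fold. Transporters of the amino acid stress list rose, Slc7a5 1.49-fold, Slc1a5 1.47-fold and Slc7a11 1.45-fold, within 8 rises and 2 falls in 21. The endoplasmic reticulum list had 8 of 24 higher, led by Sdf2l1 (1.41-fold), and Dnajb9 fell, a call lost after centring.

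Targets of FOXO factors, which act in quiescent cells, fell more often than the average gene, with 11 of 28 lower (39.3%, against 11.8%) and 1 higher. After centring 5 of the falls passed. Besides Klf6, Tsc22d3, a glucocorticoid and FOXO target, fell 1.36-fold (5.81 to 6.22 against 5.44 to 5.67). Sesn1, a FOXO and p53 target, was the one that rose (1.32-fold). The lysosome and autophagy list had 9 of 40 higher and 2 lower, led by the transcription factor Tfe3 (1.41-fold), but 3 higher and 5 lower after quantile normalization.

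DNA replication had 10 of 43 genes higher (23.3%, against 14.2% of all genes) and 1 lower (2.33%, against 11.8%). Its median untreated level was 9.2, and in the bin from 9.02 up a larger share of genes rose, 1150 of 3988. The origin genes Orc2 and Orc1 stood at 1.47-fold and 1.42-fold and Pold2 at 1.42-fold, and Gins2 was lower by 1.25-fold. After quantile normalization the counts were 6 and 6. Among 26 G1 genes 8 rose and 4 fell, or 6 and 6 after quantile normalization. The cyclins Ccnd3 and Ccne1 rose 1.44-fold and 1.36-fold, while E2f8, a repressor of E2F targets, fell 1.52-fold (11.72 to 12.15 against 10.95 to 11.52). Mitotic genes were lower in 21 of 54 cases (38.9%, against 11.8% of all genes) and higher in 4 (7.41%, against 14.2%), with a median of -0.15 against 0.03 after mCherry-Fc. After centring 9 were lower and 5 higher, where 975 of 19938 genes were lower and 3559 higher, and after quantile normalization 30 and 1. Cenpe fell 1.37-fold, Mki67, the Ki-67 proliferation antigen, 1.35-fold (11.82 to 12.03 against 11.39 to 11.58) and Aspm 1.30-fold. The groups did not overlap for Mki67, while for Aspm the lowest untreated array lay below the highest treated one.

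Of 26 histone genes 6 rose and 2 fell, with H2ac4 1.96-fold higher (10.38 to 10.82 against 11.38 to 11.76) and H1f5 1.39-fold. In the BCL2 family Bcl2l1, Bid (1.23-fold) and Mcl1 (1.14-fold) rose and 2 of 15 fell. Interferon-stimulated antiviral genes had 2 of 30 higher, Gbp3 (1.61-fold) and Trim25 (1.21-fold), and 1 lower. Of 10 interferon regulatory factor genes Irf1, Irf2bp2 (1.27-fold), Irf3 (1.24-fold), Irf2bp1 and Irf4 rose, Irf2 fell 1.30-fold, and Irf5, Irf7, Irf8 and Irf9 did not pass, at -0.11 to 0.27.

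Known IL-22 targets of epithelium and liver were mostly dim here, with 3 of 29 higher and 4 lower (5 and 2 after quantile normalization). Hp, for haptoglobin, rose the most, 2.20-fold (6.52 to 6.91 against 7.76 to 7.90; log2 1.14, SE 0.07, adjusted p = 1.28e-12). Muc1 rose 1.29-fold and Tgm1 1.28-fold. Lcn2, for lipocalin 2, spanned 7.79 to 10.22 in untreated and 8.02 to 10.47 in GFP-mCherry arrays, more than 2 log2 units within each group, so that its difference of -0.30 did not pass (adjusted p = 0.696).

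Lineage markers moved little. In the B lineage list 1 of 22 rose and 4 fell, with Ikzf1 lower by 0.26 and the calls of Cd79a and Vpreb2 lost under several alternatives. The myeloid factor genes Cebpa and Spi1 rose 1.69-fold (7.22 to 7.71 against 8.12 to 8.32) and 1.22-fold, 2 of 3 rises in 21 myeloid markers. Klf1, an erythroid factor, fell 1.32-fold and Tfrc, for the transferrin receptor, rose 1.35-fold, within 2 rises and 4 falls in 17. Mast cell, T cell and fibroblast or epithelial lists had no rise and 2, 2 and 3 falls. Among 10 NK cell markers none passed in limma's test at the threshold, including Ncr1, Klrb1c, Klrd1, Klrk1, Nkg7, Gzma, Prf1, Eomes and Tbx21, with differences of -0.15 to 0.12. Gzmb, a granzyme gene, was bright in both groups, at 12.74 to 13.26 against 12.78 to 13.23.

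The largest falls held few genes of the lists above. After Cd180, they were the olfactory receptor genes Olfr248 (2.11-fold, 8.08 to 8.92 against 7.22 to 7.70) and Olfr417 (1.83-fold), Bex6 (1.85-fold, 7.61 to 8.10 against 6.63 to 7.43), Ly96, Proser3 (1.63-fold), Sh2d3c (1.59-fold), Crebrf (1.57-fold), Klf6 and Il15. Sh2d3c encodes an adaptor of integrin signalling and Crebrf a regulator of the unfolded protein response and metabolism. Each of these had no overlap between untreated and GFP-mCherry arrays. They were picked by their change over these same arrays, so the separation is not independent of the choice, and the same holds for the largest rises above. The share of all genes without overlap was not counted.

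The direct comparison with mCherry-Fc set the fusion that can bind both chains beside a dimer that can bind only the mCherry nanobody chain. The proteins also differ in their GFP and Fc parts, and the groups share only the replicate numbers 9, 13 and 14. The chains bound and these other differences cannot be told apart. Of 19938 genes 218 (1.09%) passed, 144 (0.722%) higher with GFP-mCherry and 74 (0.371%) lower. In the first group 126 had also risen against untreated cells, 1 had fallen and 17 had not passed. In the second 47 had fallen, 9 had risen and 18 had not passed. Both comparisons use the same GFP-mCherry arrays, so these counts are not independent of each other. By at least 2-fold, 18 genes were higher and 1, Bex6, lower. Of the 40 genes that rose at least 2-fold against untreated cells, 31 were also above mCherry-Fc, none below it and 9 not called, namely Dusp4, Etv5, Gadd45b, Il6, Pim1, Pim2, Rpp38, Snora44 and Socs3.

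Genes of the NF-kB system led that list. Nfkbia was higher by 3.15 (95% interval 2.80 to 3.51, adjusted p = 5.11e-13), Gpr84 by 2.04, Nfkbiz by 2.03, Tnfaip3 by 2.03, Zc3h12a by 1.90 and Nfkbie by 1.89, all without overlap between the groups' arrays. Of the IkB list 5 of 6 passed, Bcl3 being the exception (0.23, 95% interval 0.06 to 0.41, adjusted p = 0.313). Nfkbib (0.29, adjusted p = 0.015) lost its call after centring, in high numbers, and without GFP-mCherry array 12 or mCherry-Fc array 9. With a fixed replicate block, where the 218 calls became 44, both Nfkbib and Nfkbid lost theirs. Relb, Traf1, Cish, Il4ra, Myc, Egr2, Ier2, Hmgcs1, Fdft1, Sc5d, Stard4, Kif23 and Kif2c, named below, also lost their calls with that block. Tnf was higher by 1.45, Ltb by 1.24, Icam1 by 1.21, Ier3 by 1.2 and Phlda1 by 1.09. Relb (0.93), Nfkb2 (0.96), Birc3 (0.97), Traf1 (0.98), Tnip3 (0.99) and Irf1 (0.83) followed. Chosen after their values were seen, the glucose transporter gene Slc2a6 (1.39), the ubiquitin ligase gene Neurl3 (1.31), the death receptor gene Fas (1.30) and the kinase gene Map3k8 (1.08) were also higher. All 4 had also risen against untreated cells, by 1.26, 1.25, 1.32 and 1.00.

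Genes of the STAT arm were split against mCherry-Fc. Of 44 targets 4 were higher and 2 lower, larger shares than the 0.722% and 0.371% of all genes. The list's median difference was 0. Cish was higher by 0.63 (adjusted p = 0.00112) and Il4ra by 0.35. Pim1 differed by -0.05 (95% interval -0.36 to 0.27, adjusted p = 0.975), with mCherry-Fc arrays at 11.63 to 11.86. Socs3 differed by 0.08 (-0.06 to 0.23, adjusted p = 0.824), with mCherry-Fc arrays at 8.28 to 8.44. Pim2 (0.48, interval 0.14 to 0.83, adjusted p = 0.282) and Il6 (0.96, interval 0.39 to 1.53, adjusted p = 0.116) did not pass after adjustment, although their own intervals lie above 0.

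None of the 496 growth machinery genes passed against mCherry-Fc in limma's test. Their median difference was 0.01, and each lay between -0.40 and 0.26. Nop56 differed by -0.05 (95% interval -0.17 to 0.08) and Cox5a by 0.05 (-0.06 to 0.17). In each of these lists the mCherry-Fc values against the same untreated arrays were of like size, with a median of 0.22 over the 496 genes beside 0.23 for GFP-mCherry. Both comparisons share the untreated arrays.

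Genes lower than with mCherry-Fc included Id1, Dusp6 and Myc, although the ERK feedback list as a whole had 2 genes above and 2 below it and the immediate early list 3 above and 2 below. Id1 was lower by 0.92 (GFP-mCherry 8.19 to 8.52, mCherry-Fc 9.09 to 9.48, adjusted p = 8.88e-07) and Dusp6 by 0.78 (9.12 to 9.54 against 9.89 to 10.21, adjusted p = 1.13e-06). Myc was lower by 0.42 (11.22 to 11.42 against 11.64 to 11.84). All 3 had risen against untreated cells, by 0.81, 0.86 and 0.97, where mCherry-Fc raised them by 1.73, 1.64 and 1.40. Egr2 was lower by 0.67 and Ier2 by 0.35. Bex6 was lower by 1.09, with mCherry-Fc arrays (7.79 to 8.39) beside the untreated ones.

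Of 20 cholesterol genes 6 were lower at the threshold, Insig1 by 0.71, Msmo1 by 0.52, Hmgcs1 by 0.32, Fdft1 by 0.33, Sc5d by 0.36 and Stard4 by 0.35. The last 2 had adjusted p of 0.0494 and 0.033 and lost their calls without most single arrays in turn. Of 54 mitotic genes 5 were lower, Kif23 (-0.34), Kif2c (-0.21, likewise lost without most single arrays), Tpx2, Prc1 and Ect2. The E-box was found in 15 of 57 promoter entries of the genes below mCherry-Fc (26.3%) and in 8.11% of all genes. The kappa B motif was found in 22 of 126 entries of the genes above it (17.5%) and in 3 of 57 of those below it (5.26%), against 5.05% of all genes.

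**Figure D4:**
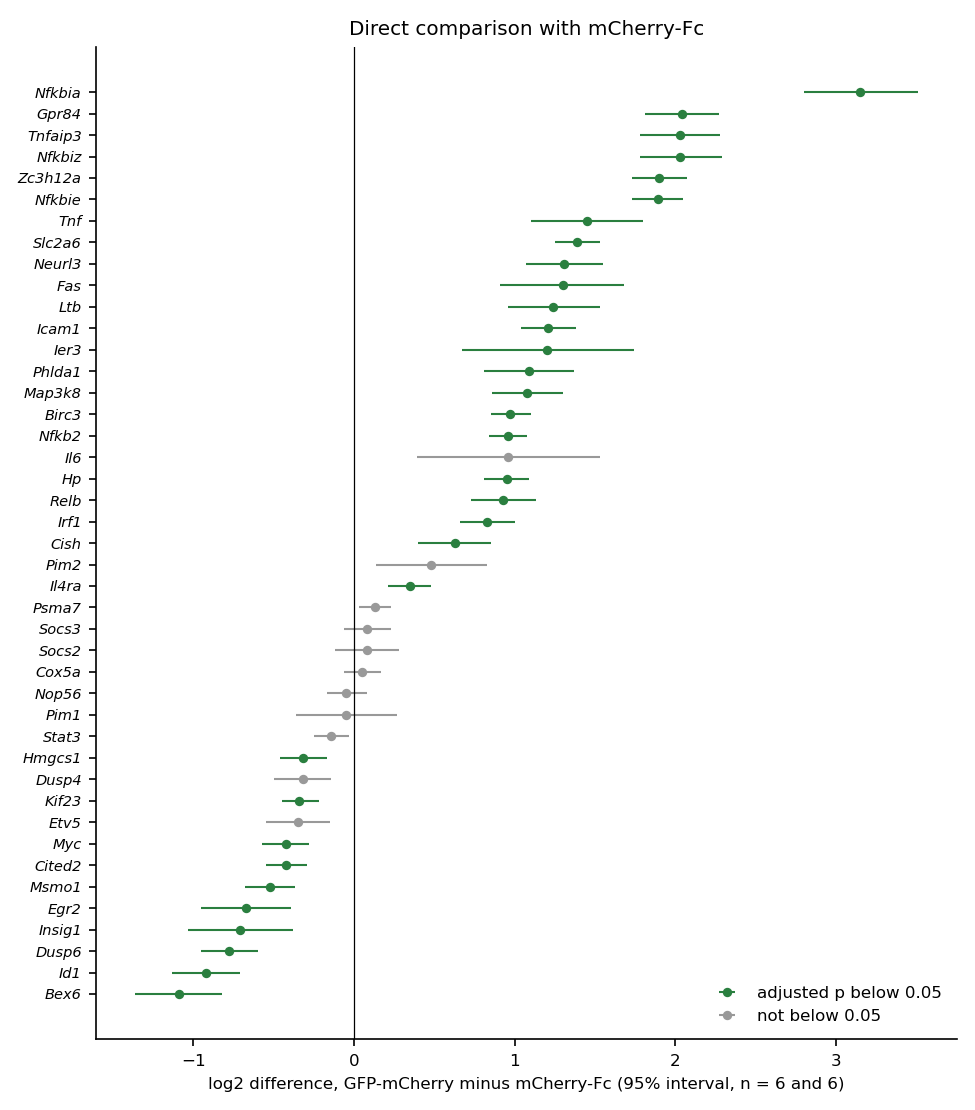
Log2 difference between GFP-mCherry and mCherry-Fc arrays (6 and 6) for 43 named genes with 95% intervals, green where the adjusted p is below 0.05. Nfkbia stands apart at 3.15, Pim1, Socs3, Nop56 and Cox5a lie at 0.08 or closer to 0, and Bex6, Id1 and Dusp6 are the lowest.

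The GFP-mCherry response was then set against the IL-22 response of the natural receptor cells, each against its own untreated arrays. The difference of the responses passed for 2718 genes (13.6%), 1840 (9.23%) higher in the GFP-mCherry response and 878 (4.4%) lower. The lines differ in receptors, ligand and number of arrays, and these cannot be told apart. They also differ before stimulation: untreated cells with natural receptors stood at 10.48 to 11.67 for Nfkbia, where untreated synthetic receptor cells stood at 8.37 to 8.76, and at 10.87 to 12.20 for Pim2 beside 7.94 to 8.35. The part of these starting levels in the differences below was not tested. Many genes named below were picked by their change against untreated synthetic receptor cells, which is itself a term of this difference.

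Feedback genes of STAT3 responded less to GFP-mCherry than to IL-22. Socs3 rose by 1.02 and by 4.30 (difference -3.28, adjusted p = 8.96e-18), Il4ra by 1.13 and 3.89, Zfp36 by 0.60 and 3.35, Osm by 0.58 and 3.03, and Cish by 1.06 and 2.06. Stat3, a target of its own product, was -0.05 and 0.98, a difference of -1.03 (adjusted p = 8.04e-10). Bcl3, Junb and Socs1 were also lower, by 0.61, 0.94 and 0.44. Within high replicate numbers the calls of Bcl3, Cish, Junb and Socs1 were lost, and that of Socs1 also without IL-22 array 1. Of the 44 STAT targets 23 were lower and 5 higher in the GFP-mCherry response, where Pim1 (0.72, adjusted p = 0.0449) and Pim2 (1.74) were among the higher. The call of Pim1 was lost under 14 alternatives, and within low replicate numbers its difference was -0.16.

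Several NF-kB feedback genes went the other way, but not all. Of 6 IkB genes 4 were higher in the GFP-mCherry response and 1, Bcl3, was lower. Of 17 A20, TRAF and cIAP genes 5 were higher and 2 lower, and of 4 NF-kB subunit genes 1 was higher and 2 lower. Nfkbia was 3.23 in the GFP-mCherry response and -0.07 in the IL-22 response (difference 3.30, adjusted p = 1.07e-09). Tnfaip3 was 2.01 and -0.51 (difference 2.52), Nfkbie 2.40 and 0.02, Nfkbiz 2.33 and 0.33, Gpr84 2.50 and 0.59, and Ltb 1.48 and -0.32. For Tnfaip3, Gpr84 and Ltb, too, the untreated natural receptor arrays (7.92 to 8.55, 7.88 to 8.38 and 10.28 to 10.87) were above the untreated synthetic ones (7.26 to 7.62, 6.03 to 6.44 and 8.37 to 8.93). Not every NF-kB target followed. Tnf rose by 1.96 and 1.85 (difference 0.11, 95% interval -0.45 to 0.67, adjusted p = 0.848), Irf1 by 0.93 and 0.85, and Il6 by 1.78 and 3.24 (difference -1.47, adjusted p = 0.0245, lost without IL-22 array 3, with a trended and robust prior and with a fixed replicate block).

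The growth machinery lists were higher in the GFP-mCherry response in 138 of 496 genes and lower in 6, with medians of 0.23 and 0.04. Complex IV genes passed in 9 of 11 cases, Cox5a by 0.63. Dusp6 was 0.86 and -0.33 (difference 1.19). Of 30 interferon-stimulated genes 14 were lower in the GFP-mCherry response, with list medians of -0.05 and 0.41.

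**Figure D5:**
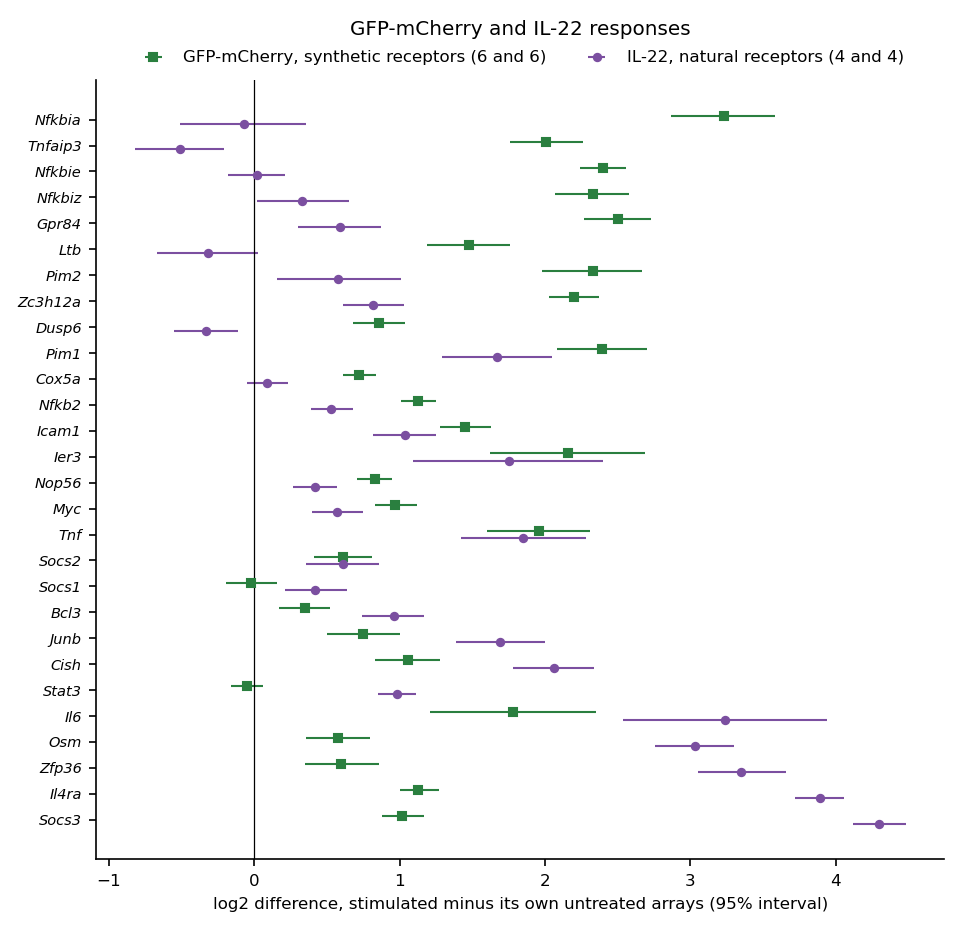
Log2 response of 28 genes to GFP-mCherry in synthetic receptor cells (6 and 6 arrays) and to IL-22 in natural receptor cells (4 and 4), with 95% intervals and ordered by the difference. Nfkbia, Tnfaip3 and Nfkbie are near or below 0 with IL-22, Tnf and Socs2 lie together, and Socs3 reaches 4.30 with IL-22 and 1.02 with GFP-mCherry.

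Finally the response was read within the replicate numbers 7, 9 and 11 and within 12 to 14. The labels do not say what a number stands for, but on the second principal component of the 12 arrays, with 23.5% of the variance, the untreated arrays of the low numbers lay apart from those of the high numbers. Of the 40 genes at least 2-fold higher, 39 were called higher in both ranges, and the exception, Snora44, is a small RNA gene outside the naming rule. Over all genes 2104 of the 5183 calls were made with the same sign in both. The 40 genes and the 5183 were picked by their change over these same 12 arrays, so neither count is an independent replication. Nfkbia rose by 3.26 and 3.20. The response differed between ranges for 1322 genes (6.63%), 372 larger and 950 lower in the high numbers. That count rests on single arrays: it was 51 without untreated array 13, 71 without GFP-mCherry array 11 and 112 without GFP-mCherry array 12.

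Among the named genes that differed, Il6 and Pim1 moved mostly in their untreated level. Il6 rose by 2.54 in the low and 1.01 in the high numbers (difference -1.52, adjusted p = 0.00796). Its untreated arrays stood at 5.84 to 6.16 and at 7.15 to 7.90, and the GFP-mCherry arrays at 8.28 to 8.83 and 8.27 to 8.67. Pim1 rose by 2.00 and 2.78 (adjusted p = 0.00318), with untreated arrays at 9.60 to 9.77 and 8.85 to 9.04. Hk2 rose by 0.27 and 1.19. Rel was -0.15 and -0.50, a call lost without GFP-mCherry array 11 or 12. Lcn2 was -1.50 and 0.90 and Itgb2, an integrin gene of leukocytes, -1.17 and 0.45, both with calls lost without GFP-mCherry array 7, 11 or 12 and Lcn2 also without 14. Loss of a call without an untreated array was not read for any of these genes.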

How the data were processed

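RNA of 26 samples was read on Affymetrix Mouse Gene arrays. The deposited values are on the log2 intensity scale, 1 per probe set. The authors used Affymetrix Expression Console 4.0, per the submitters' processing notes, and the summarization algorithm is not given in the sources used here. Of 35556 probe sets, 21789 name 1 gene, 1621 several and 12146 none by the platform annotation, and the brightest probe set of each gene gave 19938 genes. The values were tested as deposited with limma 3.58.1 in R 4.3.3: group means over all 26 arrays, moderated 2-sided tests, Benjamini-Hochberg adjustment over all genes and a threshold of 0.05. The number of arrays limits the precision. Scaling, filters, variance priors, array weights, blocks, number ranges and single arrays left out were varied, and the model was tested on simulated data. Promoter windows came from RefSeq (GRCm38.p6), from the 300 bases around each start in that table, and 21698 of the 21789 probe sets matched a current gene by its identifier.

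Named are the 12 largest rises and 10 largest falls, leaving out predicted loci, small RNAs and receptor segments, 13 genes of the IL-22 and gp130 system (Cish and Socs1 to Socs3; Stat3, Bcl3, Pim1, Junb and Egr1; Myc; Il6st, Il22ra1 and Il10rb), the members of lists of at most 12 genes, and up to 3 called genes per direction of the longer of 67 lists; others are said to be chosen by their values. The comparison, its arrays and the lists were chosen with earlier results of these data known.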

Additional observations from a re-analysis of the deposited data

Results flagged for a closer look

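A single array stood apart from the other 5 of its group for 4 of 64 gene and group pairs examined, where chance gives about 1 in 20. These were GFP-mCherry array 12 for Nfkbiz (10.27), GFP-mCherry array 11 for Gpr84 (8.97), untreated array 14 for Dusp6 (8.52) and GFP-mCherry array 13 for Birc3 (9.14), all log2 intensities above the rest of the group. Though not flagged, GFP-mCherry array 12 was also the highest of its group for Nfkbia, Nfkbie, Zc3h12a, Tnfaip3, Ier3, Tnf, Ltb, Pim1, Pim2 and Icam1, but not for Gpr84 or Il6. On the third principal component it lay at -15.2, and the other GFP-mCherry arrays at -0.6 to 10.3.

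The response to GFP-mCherry differed from that to IL-22 in natural receptor cells by limma's test of the difference for 25 of 28 genes examined. Over all genes the share was 13.6%. Many of the 28 were picked by their change against untreated cells, a term of this difference, so the 25 are not independent of that choice. Larger with GFP-mCherry, as log2 differences, were Nfkbia (3.30), Tnfaip3 (2.52), Nfkbie (2.38), Nfkbiz (1.99), Gpr84 (1.92), Ltb (1.80), Pim2 (1.74), Zc3h12a (1.38), Dusp6 (1.19), Pim1 (0.72), Cox5a (0.63), Nfkb2 (0.59), Icam1 (0.42), Nop56 (0.41) and Myc (0.40). Smaller were Socs3 (-3.28), Il4ra (-2.76), Zfp36 (-2.75), Osm (-2.45), Il6 (-1.47), Stat3 (-1.03), Cish (-1.0), Junb (-0.94), Bcl3 (-0.61) and Socs1 (-0.44). The call of Icam1 was lost under 9 alternatives, among them quantile normalization, array weights and low numbers alone, and that of Myc with a fixed replicate block and in low numbers.

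Between the replicate number ranges the response differed for 6 of 19 genes examined, given as numbers 12 to 14 minus numbers 7, 9 and 11. Lcn2 (2.40), Itgb2 (1.62), Hk2 (0.92) and Pim1 (0.78) were higher, and Il6 (-1.52) and Rel (-0.35) were lower.

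Probe sets that no gene comparison uses also changed. Of 12146 without a gene symbol 1328 (10.9%) passed against untreated cells, 441 higher and 887 lower, and 4 passed against mCherry-Fc. Of 1621 with several symbols 447 (27.6%) passed, 220 higher and 227 lower, and none was called against mCherry-Fc in limma's test.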

How the results depend on the processing

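Of 193 named genes called against untreated cells, 160 passed under all 19 settings that alter the scaling, filter, prior, block or arrays, 33 lost the call under at least 1 of them, and none changed direction. These settings leave out single GFP-mCherry arrays but no single untreated array. Of 54 called against mCherry-Fc 28 passed under all 25 settings. Of 25 called against the IL-22 response 17 passed under all 23, which likewise leave out no single untreated array of either line. Within low numbers the sign turned for Pim1, to -0.16 (adjusted p = 0.273), and for Ier3, which was 0.41 and not called over all arrays (adjusted p = 0.577), to -0.86 (adjusted p = 0.00446). The cause was not tested.

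The 2344 lower genes became 975 after centring, 1288 without genes below the median level and 3547 with numbers as a random replicate block. A minimum change of 1.5-fold in the test itself (limma's treat) left 39 genes higher and 0 lower, so that the total, the higher genes and those at least 1.5-fold all became 39, by construction. Low numbers alone gave 342 genes at least 1.5-fold changed. Against mCherry-Fc the 218 calls became 478 with array weights, 460 with the groups compared alone, 469 with number range as a batch term, 504 in low numbers and 44 with a fixed replicate block, since only numbers 9, 13 and 14 are shared. The 2718 differences from the IL-22 response became 4153 with the batch term, 4583 in low and 916 in high numbers. The 1322 differences between number ranges became 2548 without genes below the median and 2214 with a trended and robust prior.

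Leaving out 1 array at a time gave 4255 to 5955 calls against untreated cells, 2469 to 3125 higher, 1719 to 2830 lower, 212 to 240 at 1.5-fold and 36 to 44 at 2-fold. It gave 166 to 200 against mCherry-Fc, 2136 to 3438 against the IL-22 response and 51 to 2000 between number ranges.

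Whether the replicate numbers pair the arrays was not settled. Deviations of same-numbered arrays from their group means correlated at 0.157, 0.238, -0.146, -0.064, 0.417 and 0.143 for numbers 7, 9, 11, 12, 13 and 14. Those of differently numbered arrays correlated at -0.407 to 0.373. A fixed replicate block gave 5496 calls against untreated cells and a random one 6977.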
